A study of Arabidopsis thaliana with 12 samples.

Results

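Roots of the *crr* mutant were compared with roots of the wild type Col-0 after growth without added phosphate, a comparison that asks which transcripts depend on CRR when phosphate (Pi) is scarce. The comparison takes 6 of the 12 RNA sequencing libraries of the study, 3 of *crr* -Pi and 3 of Col-0 -Pi, chosen by their sample labels, and it covers all 20017 genes of the expression table. Seedlings of Arabidopsis thaliana grew for 7 days on agar medium. The +Pi medium held 1 mM phosphate. The -Pi medium had none added, although the study's methods mention a small residue. The mutant is a single T-DNA insertion line, so an effect of the CRR allele and of the line cannot be told apart, and each library pooled the roots of many seedlings. The other 6 libraries, *crr* +Pi and Col-0 +Pi, serve below as the same genotype comparison with phosphate. Levels are the authors' group means in log2 CPM (reads of a gene scaled to the library total, on the log2 scale), 1 value for each group of 3 libraries. No spread between libraries, no test and no interval is therefore given for any value, and read depth per library was not used here. A gene is called higher or lower where the group means lie at least 2-fold apart (1 log2 unit) and the larger one reaches 1 log2 CPM.

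CRR encodes a CYBDOM protein, in which a DOMON domain is joined to a cytochrome b561 domain that carries electrons across the membrane, and it acts as a ferric reductase at the root cell surface. Plant roots that run short of Pi switch on Pi transporters, phosphatases and enzymes that replace phospholipids with other lipids, under the transcription factor PHR1 and the SPX proteins that restrain it. At the same time iron collects in the cell walls of the root tip, and the state of that iron sets how far the primary root grows. Surface reductases of the FRO family, which reduce iron or copper before uptake, are another route of metal reduction in roots.

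CRR itself was almost silent in the mutant. The CRR gene (AT3G25290, 9208861 to 9210653 on TAIR10 chromosome 3) had a mean of 5.64 log2 CPM in Col-0 -Pi and of -0.11 in *crr* -Pi, a 53.9-fold difference. With phosphate the means were 5.99 and -0.38. The library labels and the targeted gene thus went together in both media. No other CYBDOM gene was called, with 8 of 10 listed members in the table and the other 7 between -0.07 and 0.47 log2 units. CRR;H1 (AT4G12980), a homologue, stood at 2.61 in Col-0 -Pi and 2.73 in *crr* -Pi. HYP1 (AT5G35735), another homologue, stood at 5.82 and 5.75. The study also made double mutants of CRR with either gene, which are not among these libraries. The homologues' levels were thus close in both genotypes.

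No gene beside CRR was called. All 14 genes of the table within 50 kb of CRR reached 1 log2 CPM and 0 of them were called. Their differences without phosphate ran from -0.61 to 0.56 with a median of -0.03. Among all genes 0.171% were called higher and 0.299% lower, so 0 called says little for 14 genes. The lowest was VTL5 (AT3G25190), a vacuolar iron transporter-like gene 33.0 kb away, at 5.61 in Col-0 -Pi and 5.01 in *crr* -Pi. The highest was AT3G25400, 2.21 kb away, at 3.19 and 3.75. VTL5 differed by 0.08 with phosphate and AT3G25400 by 0.20, so both differences were larger without it.

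**Figure D1:**
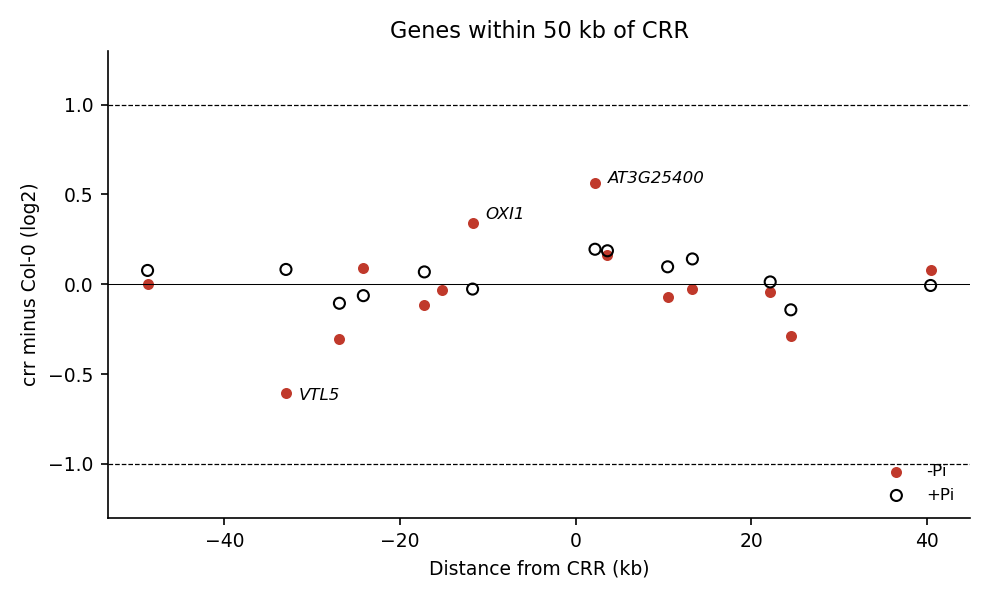
Genotype difference (*crr* minus Col-0, log2, y axis) of the 14 genes within 50 kb of CRR by distance in kb (x axis), filled for -Pi and open for +Pi; 1 open point is left out because that gene is listed at the floor in Col-0 +Pi, and dashed lines mark 2-fold. All points lie between the lines, VTL5 lowest at -0.61.

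Few genes were called across the transcriptome, and the count was higher without phosphate than with it, a difference between media that was not tested. Of 18088 genes that reached 1 log2 CPM in Col-0 -Pi or *crr* -Pi, 31 (0.171%) were called higher and 54 (0.299%) lower in *crr*. With phosphate, 2 of 17958 genes (0.0111%) were called higher and 14 (0.078%) lower. The median difference over genes was -0.00 without phosphate and 0.00 with it, so the counts do not rest on a shift of the whole table. Differences were modest, since 28 of the 31 higher genes and 51 of the 54 lower genes stayed under 4-fold. Many were also low in level, with 20 of the higher and 35 of the lower genes under 3 log2 CPM in both groups. Scatter between group means grew as the level fell. Between 1 and 3 log2 CPM the middle 95% of genes lay between -0.75 and 0.64 without phosphate, and at 5 log2 CPM or more between -0.31 and 0.25. With phosphate the same ranges were narrower, -0.57 to 0.49 and -0.18 to 0.16. Among the 7261 genes at 5 log2 CPM or more, 4 were called higher and 8 lower.

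**Figure D2:**
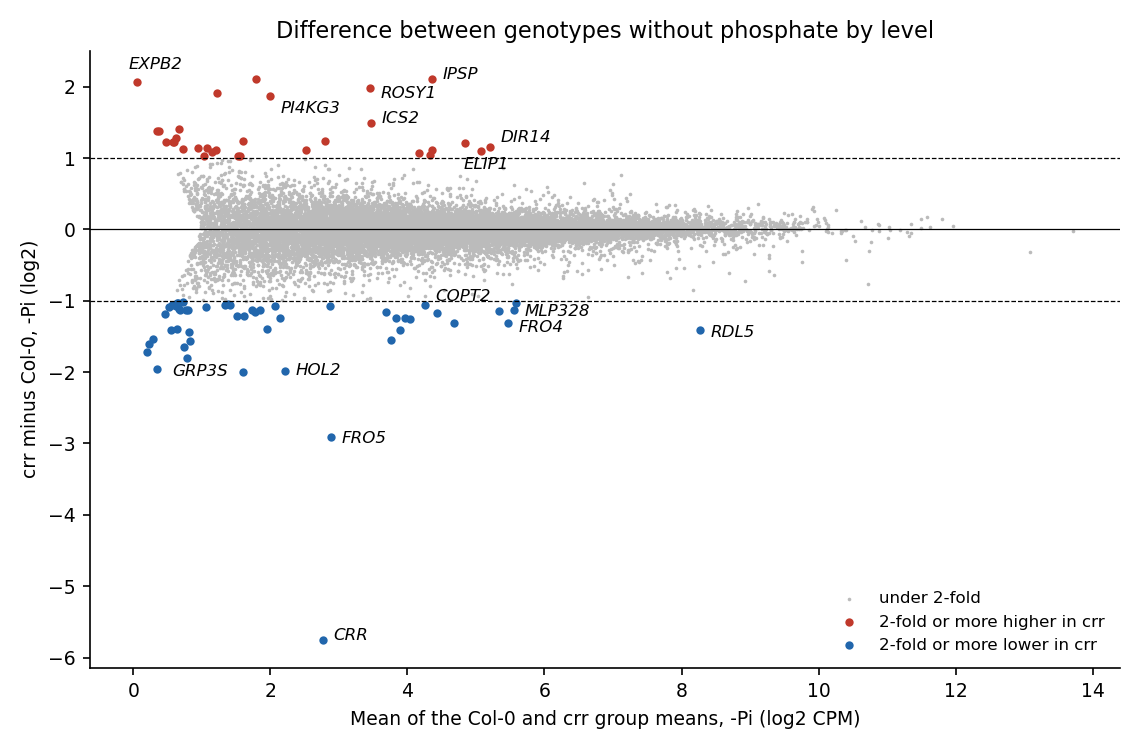
Genotype difference without phosphate (*crr* minus Col-0, log2, y axis) against the mean of both group means (log2 CPM, x axis) for genes that reached 1 log2 CPM, without AT1G64795, which is listed at the floor in *crr*. CRR at -5.75 and FRO5 at -2.91 lie farthest below the dashed 2-fold lines, and the cloud of genes widens towards low levels.

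The reductase genes FRO5 and FRO4 and the copper transporter gene COPT2 were lower in *crr* without phosphate and close in both genotypes with it. FRO5 (AT5G23990, chromosome 5, 8105461 to 8108642), a copper reductase gene of the root surface, stood at 4.34 log2 CPM in Col-0 -Pi and 1.44 in *crr* -Pi, 7.49-fold apart, the largest difference after CRR among called genes above the floor in both groups. Its means with phosphate were 1.81 and 1.71. Only the wild type without phosphate had the higher level. Its neighbour FRO4 (AT5G23980, chromosome 5, 8097978 to 8101330), also a copper reductase gene, stood at 6.13 and 4.81 without phosphate (2.49-fold) and at 4.26 and 4.56 with it. COPT2 (AT3G46900, chromosome 3, 17268700 to 17269510), which brings reduced copper into the cell, stood at 4.78 and 3.72 without phosphate (2.09-fold) and at 4.15 and 4.14 with it. In Col-0 all 3 means were higher without phosphate than with it, whereas in *crr* the FRO4 mean was 0.26 higher and the FRO5 and COPT2 means 0.28 and 0.42 lower. Of the 50-base windows of the FRO4 gene, 5.84% occur in FRO5 as well, so a share of the reads from these stretches could have been split or lost in counting.

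The windows from 250 bases before to 50 bases after the annotated gene start are shown for these 3 genes because they were lower together. They were read from the TAIR10.1 reference genome, on the coding strand. In the FRO5 and FRO4 windows the capitals mark bases that lie in a run of 8 or more found in both windows. Where such runs touch or overlap, the capitals join into a longer stretch that the other window does not hold whole. In the COPT2 window the capitals mark GTAC, the core motif that copper response factors bind.
FRO5, chr5:8108593-8108892, minus strand: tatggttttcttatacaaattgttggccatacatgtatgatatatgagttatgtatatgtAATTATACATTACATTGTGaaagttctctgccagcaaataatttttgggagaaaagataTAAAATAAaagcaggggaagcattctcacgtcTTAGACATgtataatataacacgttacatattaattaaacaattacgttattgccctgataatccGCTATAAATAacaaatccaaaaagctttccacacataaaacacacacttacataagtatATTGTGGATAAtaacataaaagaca
FRO4, chr5:8101281-8101580, minus strand: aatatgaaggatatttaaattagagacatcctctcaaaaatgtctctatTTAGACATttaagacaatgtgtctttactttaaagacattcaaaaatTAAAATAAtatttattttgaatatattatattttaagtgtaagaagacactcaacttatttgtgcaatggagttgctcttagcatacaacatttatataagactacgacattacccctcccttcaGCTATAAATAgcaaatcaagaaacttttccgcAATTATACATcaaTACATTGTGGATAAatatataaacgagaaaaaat
COPT2, chr3:17268450-17268749, plus strand: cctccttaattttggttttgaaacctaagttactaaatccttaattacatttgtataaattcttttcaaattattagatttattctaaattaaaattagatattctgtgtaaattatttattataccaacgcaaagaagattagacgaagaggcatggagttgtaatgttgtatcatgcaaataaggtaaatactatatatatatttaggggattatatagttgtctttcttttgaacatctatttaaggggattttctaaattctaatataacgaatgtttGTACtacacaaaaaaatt
The longest run that both FRO windows hold is ATTGTGGATAA (11 bases), in the transcribed part of each. The run GCTATAAATA, which holds a TATA box, began 34 bases before the gene start in FRO5 and 29 bases before it in FRO4. GTAC, searched on both strands, was not found in the FRO windows and occurred once in COPT2, 32 bases after the start. Of all 19629 promoter windows of this length, 39.1% held GTAC, beside 43.8% of the 16 copper gene windows and 35.2% of the 54 windows of genes lower in *crr*.

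The other copper genes and the iron genes lay within 2-fold. Of 16 copper uptake and handling genes at the level, 0 were higher and 3 lower (FRO5, FRO4 and COPT2), against 0.299% of all genes called lower. Their median was -0.04, which is near that of all genes. The study picked FRO4 out of these libraries, so it is no independent member. SPL7, the master regulator of copper deficiency, stood at 6.16 in Col-0 -Pi and 6.15 in *crr* -Pi. CITF1, a factor of copper uptake, stood at 2.52 and 2.47. FSD1, the iron superoxide dismutase gene that is active when copper is short, stood at 8.94 and 8.68. Its copper-dependent counterparts had slightly higher means in *crr*, with a difference of 0.35 for CSD1, 0.16 for CSD2 and 0.24 for their chaperone CCS. Among 16 iron acquisition genes 0 were called, and their median was -0.08. The lowest were CYP82C4, which makes a coumarin that mobilises iron, at -0.54, the ferric reductase gene FRO2 at -0.49 and the iron importer gene IRT1 at -0.42. FIT, the transcription factor above these genes, differed by 0.06. Iron deficiency signalling (23 genes, median -0.00) and iron storage (10 genes, median 0.02) held 0 called genes each. With 0.171% of all genes called higher and 0.299% lower, 0 called says little about iron lists of this size. The ferritin gene FER1 stood at 7.74 and 7.83, and the lowest storage genes were the vacuolar transporter-like VTL5 at -0.61 and VTL2 at -0.46. Iron genes as a group were thus near the median of all genes.

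Pi starvation genes lay within 2-fold between genotypes, and most had slightly lower means in *crr* -Pi. Of 33 measured genes at the level, 0 were called, and the median was -0.13, with 26 below 0, against 51.3% of all genes below 0. As 0.171% of all genes were called higher and 0.299% lower, 0 called says little in lists of this size. IPS1, a non-coding RNA that blocks a microRNA of Pi signalling, stood at 7.98 in Col-0 -Pi and 7.82 in *crr* -Pi. The SPX sensor gene SPX1 stood at 9.08 and 9.03. The acid phosphatase gene PAP17 stood at 7.62 and 7.59. All 3 were named by the study, and they differed by 0.16 or less. The Pi transporter gene PHT1;2, also named there, stood at 7.51 and 7.08, and the lowest of the list were PAP23 at -0.70 and PHT1;8 at -0.60. Of 14 membrane lipid remodelling genes 0 were called and all 14 lay below 0, between -0.24 for the phospholipase gene NPC4 and -0.01. MGD2, a galactolipid synthase gene the study named, stood at 4.67 and 4.63. The root tip Pi sensing genes (16 at the level, median -0.05) held 0 called genes. LPR1, the ferroxidase gene of this route, stood at 3.79 and 3.77, PDR2 differed by 0.02 and the malate channel gene ALMT1 by -0.26.

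**Figure D3:**
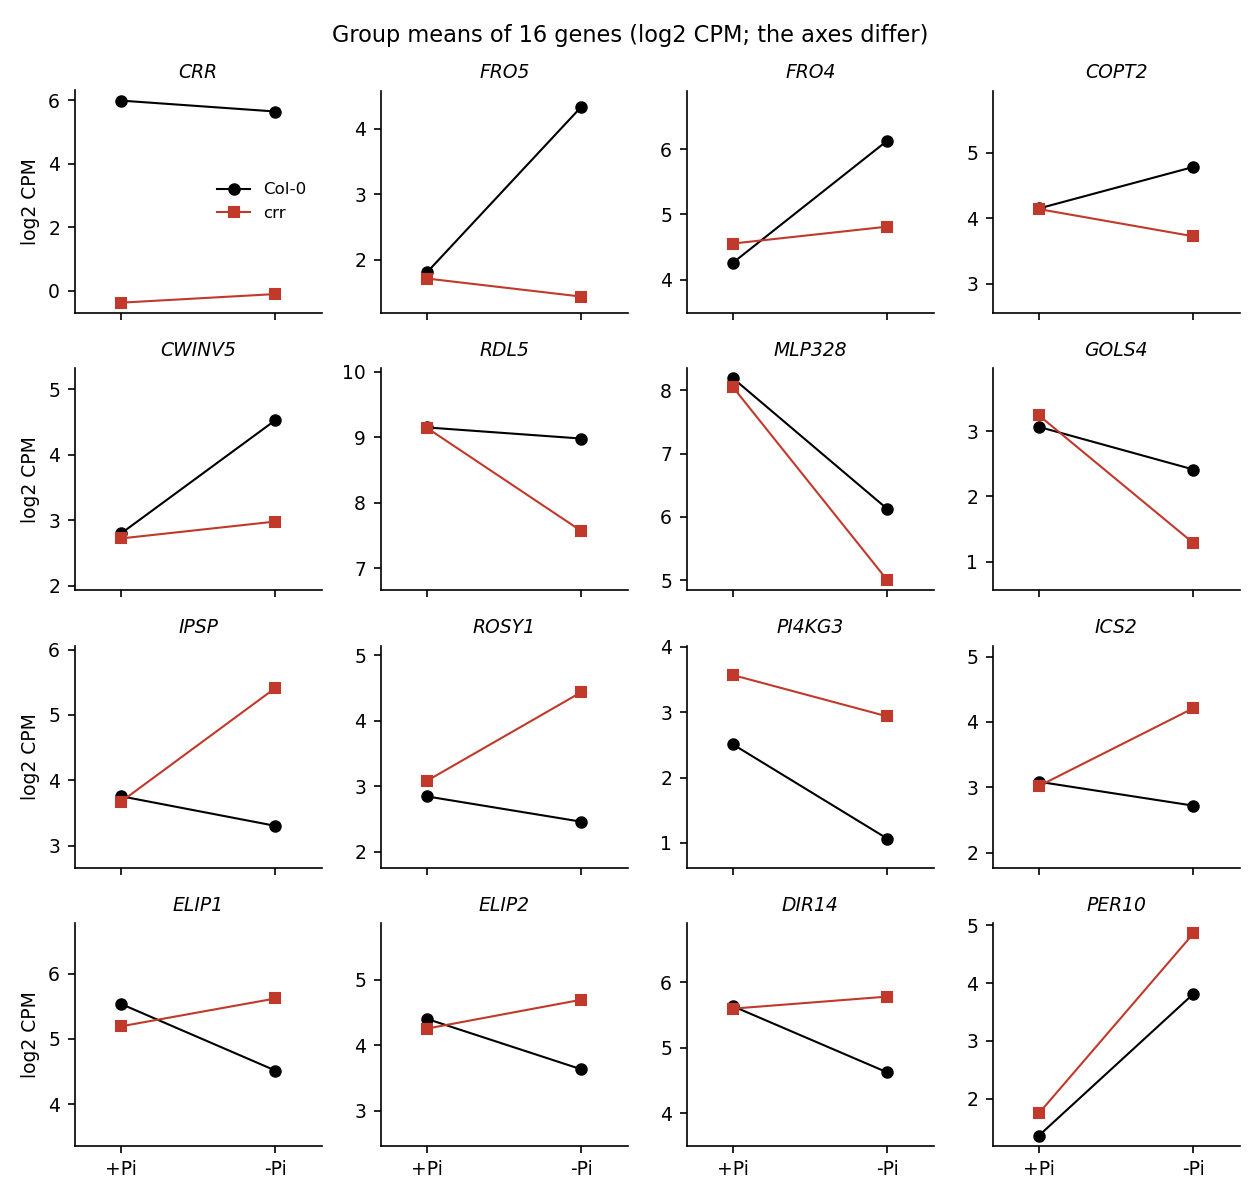
Group means (log2 CPM, y axes of different range) of 16 genes in Col-0 (black circles) and *crr* (red squares) with and without phosphate; each point is the authors' mean over 3 libraries, with no error given. In most panels both genotypes lie close under +Pi and apart under -Pi, as for FRO5 at 1.81 and 1.71 against 4.34 and 1.44, while CRR and PI4KG3 are apart in both media.

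Most listed genes of photosynthesis, whose transcripts are scarce in roots, had lower means in *crr* without phosphate, but few were past 2-fold. All 6 green tissue markers in the table lay below 0, from -0.86 for RBCS1A, a small subunit of Rubisco, to -0.34 for GAPB of the Calvin cycle, with a median of -0.60, and 0 of them were called. With phosphate 1 of these 6 lay below 0 and the median was 0.17. For all genes the share below 0 was 51.3% without phosphate and 49.6% with it. Their own medians were -0.00 and 0.00. The summed level of the 6 green tissue markers was 87.7 CPM in Col-0 +Pi, 98.0 in *crr* +Pi, 51.3 in Col-0 -Pi and 34.9 in *crr* -Pi. No marker was at the floor. The other 4 listed markers were not analysed here. Of 28 photosystem, antenna and electron transport genes, 23 lay below 0 without phosphate and 7 with it, with medians of -0.32 and 0.11, and 0 were called. PETC, the Rieske protein of the cytochrome complex of thylakoids, was the lowest, at 2.44 and 1.49. In the Calvin cycle and chlorophyll list 2 of 10 were called lower, against 0.299% of all genes, and 7 lay below 0. SBPASE, a Calvin cycle phosphatase, stood at 1.33 in Col-0 -Pi and -0.07 in *crr* -Pi, and PORB, which makes chlorophyllide, was 2.24-fold lower in *crr* -Pi than its 2.36 in Col-0 -Pi. HEMA1 and CHLH, which act early in chlorophyll synthesis, differed by 0.01 and 0.15. Outside the lists, 3 further lower genes were described as chloroplastic. CP12-1, a regulator of the Calvin cycle, differed by -1.08, and CCB4, which attaches haem to cytochrome b6, by -1.06. The carbonic anhydrase gene ACA1 (AT3G52720) differed by -1.40. With a pseudocount of 1 CPM, which shrinks differences of low genes, ACA1 stayed past 2-fold at -1.10, but 4 did not, at -0.85 for SBPASE, -0.90 for PORB, -0.87 for CP12-1 and -0.77 for CCB4. Over 824 nuclear genes whose description says chloroplastic, a group formed after seeing the values, 3 were called higher and 5 lower. The 3 were ICS2, NCED3 and ELIP2, and the 5 were SBPASE, PORB, CP12-1, CCB4 and ACA1 again. Among all genes 0.171% were called higher and 0.299% lower. The median of the group was -0.04, near that of all genes, but 61.8% of the group lay below 0 without phosphate and 42.6% with it. In whole roots, fewer green cells and less of these RNAs per cell cannot be told apart, and the part of green tissue in the other differences was not tested. Root markers were at high levels in both groups, such as the auxin carrier gene PIN2 at 7.54 and 7.55 and the root glucosidase gene PYK10 at 13.24 and 12.92.

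The early light-induced proteins went the other way. ELIP1 (AT3G22840, chromosome 3, 8084405 to 8085669), a chlorophyll-binding protein of stressed plastids, stood at 4.52 in Col-0 -Pi and 5.62 in *crr* -Pi, and at 5.54 and 5.19 with phosphate. ELIP2 (AT4G14690, chromosome 4, 8418242 to 8419325) stood at 3.63 and 4.70, and at 4.40 and 4.25 with phosphate. Both genes of the family were called higher, against 0.171% of all genes. They share no 50-base window (0 of 1216), so reads of 50 bases or more could be told apart. Both values come from the same libraries. The summed level of both was 35.3 CPM in Col-0 -Pi and 75.1 in *crr* -Pi, while the green tissue markers stood at 51.3 and 34.9. The ELIP1 window holds a G-box, CACGTG, in capitals, 66 bases before the start, and is shown because 6 of the 30 windows of genes higher in *crr* held this motif.
ELIP1, chr3:8085620-8085919, minus strand: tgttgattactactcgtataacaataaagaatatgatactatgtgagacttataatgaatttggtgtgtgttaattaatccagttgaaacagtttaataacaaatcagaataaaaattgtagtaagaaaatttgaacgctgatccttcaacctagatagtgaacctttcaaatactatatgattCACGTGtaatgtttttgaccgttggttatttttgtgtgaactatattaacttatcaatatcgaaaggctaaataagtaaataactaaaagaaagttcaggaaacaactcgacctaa
Of all 19629 windows 8.65% held CACGTG, as did 1 of 54 windows of genes lower in *crr*, and none was found in that of ELIP2. The PHR1 site GNATATNC, searched on both strands, was found in 6.28% of all windows, in 2 of 30 of the higher genes and in 4 of 54 of the lower genes.

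Several gene families had members that were called lower in *crr* -Pi, where 0.299% of all genes were called lower and 51.3% lay below 0. Of 10 major latex protein-like genes, which encode small proteins that bind hydrophobic ligands, 0 were higher, 3 were called lower and all 10 lay below 0, with a median of -0.49. With phosphate all 10 also lay below 0, with a median of -0.14. MLP328 (AT2G01520) stood at 6.12 in Col-0 -Pi and was 2.18-fold lower in *crr* -Pi. The neighbours MLP43 and AT1G70880 stood at 4.67 and 3.41 and at 4.45 and 3.21, and shared no 50-base window. Reads of 50 bases or more could thus be told apart, though both values come from the same libraries. The neighbouring berberine bridge enzyme-like genes AT5G44400, at 5.91 and 4.76, and AT5G44410, at 2.12 and 0.90, were the 2 called of 12 in that family. BGLU47 at -1.25 and BGLU7 at -1.23 were the 2 called of 21 beta-glucosidase genes. Both of these families were formed after seeing the values. RDL5 (AT4G11320), a papain-like cysteine protease gene, had means of 8.98 and 7.57 without phosphate and 9.15 and 9.14 with it. CWINV5, annotated as a cell wall invertase, stood at 4.53 and 2.98, and at 2.80 and 2.72 with phosphate. GOLS4, a galactinol synthase gene named by the study, stood at 2.41 and 1.29, and GOLS1 differed by -0.78. GOLS4 was the 1 called of 8 galactinol and raffinose genes, whose median was -0.21. With the pseudocount AT5G44410 and GOLS4 stayed under 2-fold, at -0.90 and -0.88.

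Other lower genes had single roles. GRP3S, which encodes a glycine-rich wall protein, stood at 2.59 in Col-0 -Pi and 0.60 in *crr* -Pi. The methyltransferase gene HOL2 stood at 3.20 and 1.22 and is listed at the floor in Col-0 +Pi. UMAMIT17, of a family of amino acid transporters, stood at 1.68 and -0.13, and at 4.39 and 4.69 with phosphate. The senescence and dark-response gene STR15 (also SEN1) stood at 1.57 and -0.09, and the terpene synthase gene TPS28 differed by -1.57. Both lie at the low levels where group means scatter most, and with the pseudocount TPS28 differed by -0.998. SP1L2, of a family that organises microtubules, stood at 4.60 and 3.19, and the lectin-like gene AT3G16530 at 5.33 and 4.02. CYP71A19 stood at 5.02 and 3.85, the lowest of 131 cytochrome P450 genes, of which 1 was higher and 1 lower. Also among the 12 lowest were AT5G16980 at -1.95, AT2G01400 at -1.72 and AT2G26500 at -1.61, all at low levels. With the pseudocount these differed by -1.09, -0.92 and -0.87.

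The genes higher in *crr* -Pi were led by a serine pathway gene. IPSP (AT5G04120, chromosome 5, 1119937 to 1121813), a metal-independent phosphoserine phosphatase, stood at 3.30 in Col-0 -Pi and 5.41 in *crr* -Pi (4.32-fold), and at 3.76 and 3.67 with phosphate. AT1G52820, an oxygenase of the 2-oxoglutarate and iron dependent superfamily, stood at 0.73 and 2.84 without phosphate and in the opposite order, 2.27 and 1.12, with it. ROSY1, a lipid-binding protein known from root gravity and salt responses, stood at 2.46 and 4.44. These 3 had higher means in *crr* -Pi than in any other group. PI4KG3, annotated as a phosphatidylinositol 4-kinase, was higher in *crr* in both media, at 1.06 and 2.93 without phosphate and at 2.51 and 3.57 with it. ICS2, an isochorismate synthase of the salicylate and phylloquinone route, stood at 2.72 and 4.21. The expansin-like gene EXPB2 was called at low levels, -0.98 and 1.09, as were NCED3, the rate-limiting gene of abscisic acid synthesis, at -0.31 and 1.06, and the glutaredoxin gene GRXS9 at -0.02 and 1.25. Other stress genes called higher were the elicitor peptide gene PEP2 at 1.23, the peroxidase gene PER10 at 1.04, WRKY28 at 1.03 and GSTU11 at 1.03. They were single members of their lists: 1 of 52 peroxidase genes, 1 of 54 WRKY genes and 1 of 41 glutathione transferase genes was called, with medians of 0.04, -0.05 and 0.03, against 0.171% of all genes called higher. With the pseudocount NCED3, GRXS9, PEP2, PER10, WRKY28 and GSTU11 stayed under 2-fold, between 0.69 for GSTU11 and 0.995 for PER10. Also among the 12 highest were the long non-coding RNA gene AT5G09735 at 1.91, TOC75-IV at 1.41, AT5G06980 at 1.38 and PRP2 at 1.24. With the pseudocount these differed by 1.33, 0.86, 0.77 and 1.08.

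In lists of the endodermis, aquaporins and root triterpenes most genes had higher means in *crr* -Pi, and 0 were called. In the Casparian strip and suberin list 0 of 20 were called, 5 lay below 0 and the median was 0.19, whereas with phosphate 18 lay below 0 and the median was -0.12. The scaffold genes CASP1, CASP2 and CASP4, which place the Casparian strip, differed by 0.43, 0.46 and 0.57. ESB1, a dirigent protein gene of the same strip, stood at 6.74 in Col-0 -Pi and 7.23 in *crr* -Pi, and their activator MYB36 at 4.87 and 5.19. The suberin genes differed in both directions, with FAR1 (AT5G22500) at -0.36 and ASFT at 0.20. Of 18 aquaporin genes at the level, 12 lay below 0 with phosphate. Without phosphate their median was 0.22, with 4 below 0 and 0 called. The vacuolar TIP2;1 was highest, at 6.74 and 7.50, and PIP2;4 of the plasma membrane differed by 0.58. All 8 genes of the thalianol and marneral clusters, which make root triterpenes, lay above 0 (0.06 to 0.54). With phosphate 7 of them lay below 0, with a median of -0.08. Of all genes, 51.3% lay below 0 without phosphate and 49.6% with it. Dirigent protein genes, a group formed after seeing the values, had 1 of 16 called higher, against 0.171% of all genes, DIR14 at 4.62 and 5.78, and a median of 0.25. In the lipid-transfer superfamily, also formed then, 2 of 17 were called, the neighbours AT5G46890 at 4.24 and 5.45 and AT5G46900 at 3.80 and 4.91. The latter share 26.8% of the 50-base windows of AT5G46890, so their values are not separate. AGP13, at 1.96 and 3.08, was the 1 called of 40 arabinogalactan and fasciclin-like genes, and differed by 0.95 with the pseudocount.

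**Figure D4:**
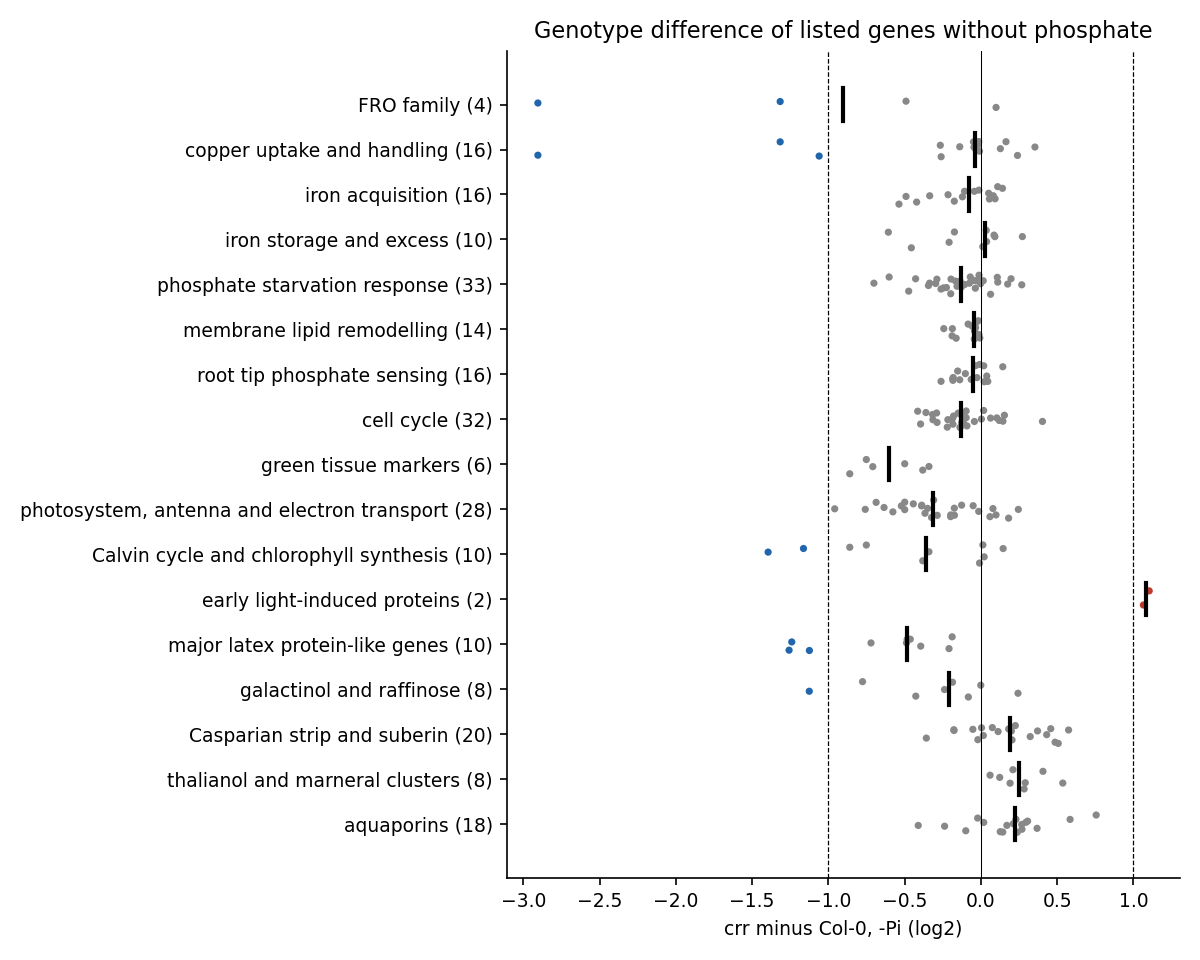
Genotype difference without phosphate (*crr* minus Col-0, log2, x axis) of every gene at the level in 17 lists (number of genes in brackets); points are genes, with blue and red past 2-fold, black bars are list medians and dashed lines mark 2-fold. Green tissue markers (median -0.60) and major latex protein-like genes (median -0.49) lie to the left, both early light-induced proteins lie past the right line, and the Pi starvation list (median -0.13) stays between the lines.

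Growth genes of the root tip lay within 2-fold between genotypes, and most cell cycle genes had slightly lower means in *crr* -Pi. Of 32 cell cycle genes 0 were called, 24 lay below 0 and the median was -0.13, against 0.01 with phosphate. Of all genes, 51.3% lay below 0 without phosphate and 49.6% with it. As 0.171% of all genes were called higher and 0.299% lower, 0 called says little in lists of this size. The cyclin gene CYCA1;1 stood at 4.51 in Col-0 -Pi and 4.09 in *crr* -Pi, CYCD3;1 at 5.74 and 5.34, and the cytokinesis gene KNOLLE at 6.09 and 5.80. Stem cell niche genes (10 at the level, median 0.09), root cap genes (5, median 0.13), root hair genes (14, median 0.07) and vascular genes (8, median 0.03) held 0 called genes each. SCR, which marks the endodermis and quiescent centre, differed by 0.09, PLT1 by 0.22 and the niche gene WOX5 by -0.21. Cytosolic ribosomal protein genes (166) had a median of 0.07, with 17 below 0 without phosphate and 39 with it.

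Stress and hormone lists showed few differences past 2-fold, as did all genes, of which 0.171% were called higher and 0.299% lower. The 0 counts below thus say little about lists of this size. Of 18 oxidative stress genes 0 were called and the median was 0.02, with the catalase gene CAT3 lowest, at 7.73 and 7.12, and ZAT10 highest at 0.50. Ascorbate genes (18, median -0.04), which supply the electron donor of cytochrome b561 proteins, held 0 called genes, and the recycling enzyme gene DHAR1 was lowest at -0.46. Of 26 heat shock protein genes 21 lay below 0 without phosphate and 6 with it, with medians of -0.05 and 0.08. Of 12 ethylene genes 1 lay below 0 without phosphate (median 0.14). For all genes the share below 0 was 51.3% without phosphate and 49.6% with it. The jasmonate list (14, median 0.07) held the storage protein genes VSP1 at -0.74 and VSP2 at -0.75, and in the clock list (15, median 0.07) PRR9 differed by 0.97. MYB12, the activator of flavonol synthesis, stood at 4.39 and 5.14, while its target FLS1 differed by -0.11. Nitrate and ammonium genes (19), sulfate genes (12), aliphatic glucosinolate genes (11) and auxin response genes (29) held 0 called genes, with medians of -0.03, -0.06, -0.16 and 0.00.

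Most genes called without phosphate lay close together with phosphate. Of the 85 genes called without phosphate, 69 differed by less than 1.5-fold with phosphate, 3 differed by at least 2-fold in the same direction and 1 in the opposite direction. Of all 17958 genes at the level with phosphate, 60 were higher and 94 lower by at least 1.5-fold, so most genes lay under that limit. The 3 past 2-fold in the same direction were CRR, AT1G64795 and PI4KG3, and the 1 in the opposite direction was AT1G52820. The 31 higher genes had a median difference of 1.22 without phosphate and -0.08 with it, and 12 of them were above 0 with phosphate. The 54 lower genes had medians of -1.20 and -0.11, and 39 were below 0 with phosphate, CRR and AT1G64795 among them. Of all genes, 49.6% were below 0 with phosphate. These media share no libraries. The genes were picked for their difference without phosphate, so smaller differences with it are expected from that choice alone. Among genes above the floor in all 4 groups, of which HOL2 is not one, the difference between the genotype differences was largest for AT1G52820 (3.25), FRO5 (-2.81), the low-level gene SCPL32 (2.73), ACA1 (-2.37), NAC035 (-2.26) and IPSP (2.19). ACA1 (AT3G52720) stood at 2.65 in Col-0 -Pi and 1.25 in *crr* -Pi, and at -0.66 and 0.32 with phosphate. SCPL32 and NAC035 were under 1 log2 CPM in both groups without phosphate and were not called.

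**Figure D5:**
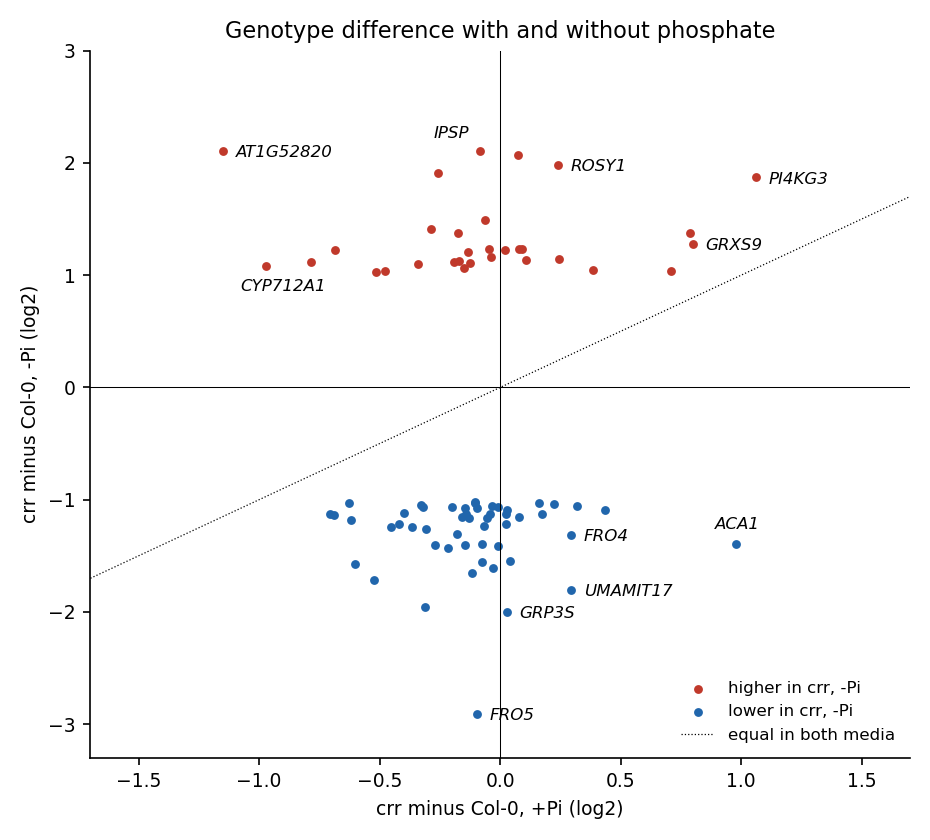
Genotype difference without phosphate (y axis, log2) against that with phosphate (x axis, log2) for the genes called without phosphate, leaving out CRR (-5.75 and -6.37) and the genes AT1G64795 and HOL2, which are listed at the floor in a group; red is higher and blue lower in *crr* -Pi, and the dotted line marks equal differences. Most points gather around 0 on the x axis, with PI4KG3 at 1.06 and AT1G52820 at -1.15 at its ends.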

How the data were processed

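RNA sequencing libraries of Arabidopsis roots were grouped by their GEO labels (4 groups of 3). According to the submitters' processing notes and the study's methods, the authors trimmed reads with cutadapt 1.8, aligned them to TAIR10 with STAR 2.5.3a and counted them per gene with HTSeq 0.9.1; RSEM 1.2.31 is also listed. The strand setting is not given in the sources used here, so overlapping antisense genes cannot be told apart. The authors removed low genes and deposited mean log2 CPM for each group, computed with TMM scaling in edgeR 3.24.3 under R 3.5.3. For RNA extraction the labels give a column kit, the methods Trizol. The deposited tables of the authors' own comparisons (fold changes, p-values and adjusted p-values from limma) were not used, and 0 columns of per-sample values were left unmapped.

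Differences between group means were computed in Python 3 with numpy and pandas, and a call needed 2-fold and 1 log2 CPM in 1 of both groups. The code of the calls was run on simulated data with less scatter than genes of low level show here. That run checks the code and not how often a call is wrong. A mean of -5.09, the lowest in the table, is listed as the floor (30 genes in 1 or more groups), and no fold against it is given. In 1833 genes the position fields were displaced and read accordingly. Of 19998 genes found in the reference (RefSeq, TAIR10.1), 99.3% had the same coordinates.

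Named genes were taken from several groups, and not every member is given. The groups are the 12 largest differences in each direction, the 10 largest at 5 log2 CPM or more, and genes within 50 kb of CRR. They also include members of the gene lists that were called or among the 4 largest of a list, CRR and its homologues, and genes the study named. Genes given for their role only, such as SPL7, FIT or LPR1, were chosen after their values were seen, as were the largest differences between media. The comparison, lists and rules were chosen with earlier results of these data known. Genes with unrelated functions (phosphoserine aminotransferases, release factors, HSPRO) were taken out of 3 lists defined by gene name after their values were seen, and 7 groups were added then. Alternatives were other level and fold limits, the median or a running median over 501 genes subtracted, and a pseudocount of 1 CPM. A gene counts as moved where its difference shifted by 1.5-fold, a list median where it shifted by 0.1, and a count where it shifted by 1.5 times. A withheld item is not reported here.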

Additional observations from a re-analysis of the deposited data

How the results depend on the processing

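The number of called genes depended on the level and fold limits. Without phosphate, 126 genes were higher and 212 lower with no minimum level, 68 and 113 with a minimum of 0 log2 CPM, and 11 and 19 with a minimum of 3 log2 CPM. A limit of 1.5-fold gave 185 and 321 genes and a limit of 4-fold gave 3 and 3, against 31 and 54 in the report. A pseudocount of 1 CPM left 13 and 24, which by its construction can only be among those 31 and 54. With phosphate, where the report has 2 and 14, the counts were 79 and 112 with no minimum level, 24 and 29 with 0 log2 CPM, 1 and 3 with 3 log2 CPM, 60 and 94 at 1.5-fold, 0 and 2 at 4-fold, and 0 and 2 with the pseudocount, and with the running median subtracted 4 genes were higher. Subtracting the median changed no count. Of the list medians, that of the FRO family was -0.49 with no minimum level against -0.90, and none of the others moved by 0.1 or more under the 3 alternatives tried. With the pseudocount 11 named genes moved by 1.5-fold or more. A pseudocount always moves a difference towards 0 and cannot change its sign, so the direction is no result. Without the spread between libraries, genes near 1 log2 CPM are the least certain, since few reads stand behind them. No paired analysis was possible because the files used here hold 1 mean for each group, and for the same reason no library could be left out in turn.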

Other observations

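AT1G64795, besides CRR, stood far lower in *crr* in both media. This short gene on chromosome 1 (24082579 to 24082848), which has no description in the table, had means of 3.48 in Col-0 +Pi and 3.27 in Col-0 -Pi and is listed at the floor in *crr* in both media. It lies on another chromosome than CRR, and the sources used here name no second insertion. The cause was not tested.

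AT3G46920 (chromosome 3, 17280430 to 17285048) lies near COPT2 (17268700 to 17269510) and had lower means in *crr* in both media. It stood at 4.72 in Col-0 -Pi and 3.78 in *crr* -Pi and at 4.64 and 3.64 with phosphate, where it was called lower. Among genes at 5 log2 CPM or more that stayed under 2-fold, the polyamine synthesis gene SAMDC2 stood at 4.96 and 5.82, the glutathione transferase gene GSTF14 at 4.51 and 5.22, and the lipase-like ATTLL1 at 7.10 and 6.16. The peroxidase genes PER23, at 8.59 and 7.74, and PER71, at 8.17 and 7.49, had lower means in *crr*, while PER10 was called higher. The type-A cytokinin response genes ARR3 and ARR7 differed in opposite directions, by 0.57 and -0.57.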
